A study of Mus musculus with 18 samples.

Results

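The medullary thick ascending limb (MTAL) of *Cldn10* conditional knock-out (cKO) mice was compared with the cortical thick ascending limb (CTAL) of wild type (WT) mice. All 3 pools of cKO MTAL and all 5 pools of WT CTAL were taken, 8 of the 18 pools of the series, and 12024 of the 55401 genes in the table reached at least 3 CPM (counts scaled to library size) in at least 3 of these 8 pools. The question was in which genes the knock-out MTAL has the level of a normal CTAL, in which it keeps the level of a normal MTAL, and in which it lies outside both. The mice were adult males, mostly of C57BL/6 background, and every animal carried *Cldn10* fl/fl alleles. The cKO animals also carried Cre under the Ksp-cadherin promoter, which drives it in the distal nephron, and the WT animals were littermates without Cre. Each pool held between 150 and 200 tubules microdissected from 1 animal. The deletion was not complete, and nephrocalcinosis of the outer medulla of the cKO kidney hampered the dissection, for which only 3 pools remained after quality control. The 2 groups differ in segment and in genotype, which cannot be told apart in this comparison, and the 5 WT MTAL pools were therefore set beside it. The 5 cKO CTAL pools were used for single levels, for the library scaling over 18 pools and in 1 alternative fit of all 18 pools.

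The thick ascending limb reabsorbs NaCl through the apical cotransporter NKCC2, and potassium recycled by the apical channel ROMK makes the lumen positive. This voltage drives cations between the cells, through tight junctions whose selectivity is set by claudins. Claudin-10b forms sodium pores, mainly in the medulla, while claudin-16 and claudin-19 form the pathway for calcium and magnesium, mainly in the cortex. Claudin-14 reduces that pathway, and the calcium-sensing receptor and the parathyroid hormone receptor regulate it. The cells of the medulla also face low oxygen and high osmolality.

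Total counts of the 8 pools ranged from 10824299 to 62339939. *Cldn10* (ENSMUSG00000022132, chromosome 14 from 118787908 to 118875489 of GRCm38) had 283, 151 and 213 CPM in cKO MTAL and 446, 579, 383, 531 and 564 CPM in WT CTAL, in the order of replicates 16, 18 and 20 and of replicates 1, 3, 8, 10 and 22, which is kept throughout. The cKO MTAL pools were the lower ones without overlap (log2 fold change −1.17 with a standard error of 0.2). The study kept only cKO pools whose *Cldn10* was significantly lower than in WT. This difference was thus a condition of selection, and no p is given for it. All adjusted p-values of the report are those of the quasi-likelihood test of edgeR. The GEO label of WT CTAL replicate 1 names the knock-out, while its pool name is WT. Its *Cldn10* level lay within the range of the other WT CTAL pools, and it was used as WT. *Xist* was at 6.50 and 6.57 CPM in WT CTAL replicates 3 and 22 and between 0.234 and 0.736 CPM in the other 6 pools, although all mice were labelled as males. It was at 7.45 to 8.91 CPM in 4 of the 5 WT MTAL pools. *Xist* and the Y-linked sex markers together summed to 100 and 102 CPM in WT CTAL replicates 3 and 22. These sums lay within the 90.5 to 125 CPM of the other 6 pools. The source of *Xist* was not tested. With a term for pools above 5 CPM of *Xist*, an alternative added after the data were seen, 106 genes were called in place of the 146 given next, and 16 of the 48 called genes taken by the rule for named genes lost the call.

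Of the 12024 genes, 146 (1.21%) were called, that is, they had an adjusted p under 0.05 with at least a 2-fold change, 100 (0.832%) higher and 46 (0.383%) lower in cKO MTAL. By the adjusted p alone 300 genes (2.5%) passed. The call was not made for 9162 genes (76.2%) whose 95% interval of the log2 fold change lay between −1 and 1, so that a 2-fold difference was outside their interval. The median log2 fold change was 0.01 and the median absolute value 0.20. In 137 of the 146 genes (1.14% of all) the CPM ranges did not overlap, against 12% of all genes tested. The comparison of WT MTAL with WT CTAL called 270 of 11650 genes (2.32%), and that of cKO MTAL with WT MTAL called 451 of 12060 (3.74%), 325 higher (2.69%) and 126 lower (1.04%). Between the normal segments 88.5% of genes were not called with an interval within 2-fold and the median absolute log2 fold change was 0.15. Both measures also depend on the noise of a comparison. The median standard error was 0.19 for cKO MTAL against WT CTAL and 0.15 between the normal segments. The measures therefore do not rank how far the groups lie from WT CTAL. The 3 comparisons share pools and differ in group size, and their counts were not tested against each other.

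The count depended on single pools. Without replicate 18 it was 391 genes, 338 of them higher, and without replicate 20 it was 124. Replicate 18 had the highest levels of the injury markers *Lcn2* and *Clu*, and replicate 20 held the summed principal cell markers at 1041 CPM, against 124 and 125 CPM in replicates 16 and 18. It was 97 without WT CTAL replicate 1, 90 without replicate 10 and 89 without replicate 8. Of the 48 called genes that the rule for named genes took, 29 lost the call in at least 1 of 17 alternatives and 15 kept it in all 17. The other 4 (*Gh*, *Psca*, *Serpina10* and *Sprr1a*) were called in the 13 in which they were tested. That is no sign of stability, since they passed the filter through cKO MTAL only. Of the 146 genes, 12 reached 3 CPM in cKO MTAL pools only and 9 in WT CTAL pools only, so that they could enter only if they were higher in that group. Among those named here these were *Fst*, *Gh*, *Npas2*, *Psca*, *Serpina10*, *Sprr1a* and *Sycn* on the higher side and *Cadm2*, *Hey2*, *Lair1*, *Mt3*, *Pappa2*, *Pstpip2* and *Sema3d* on the lower side, and their values are given as a description, with no p.

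**Figure D1:**
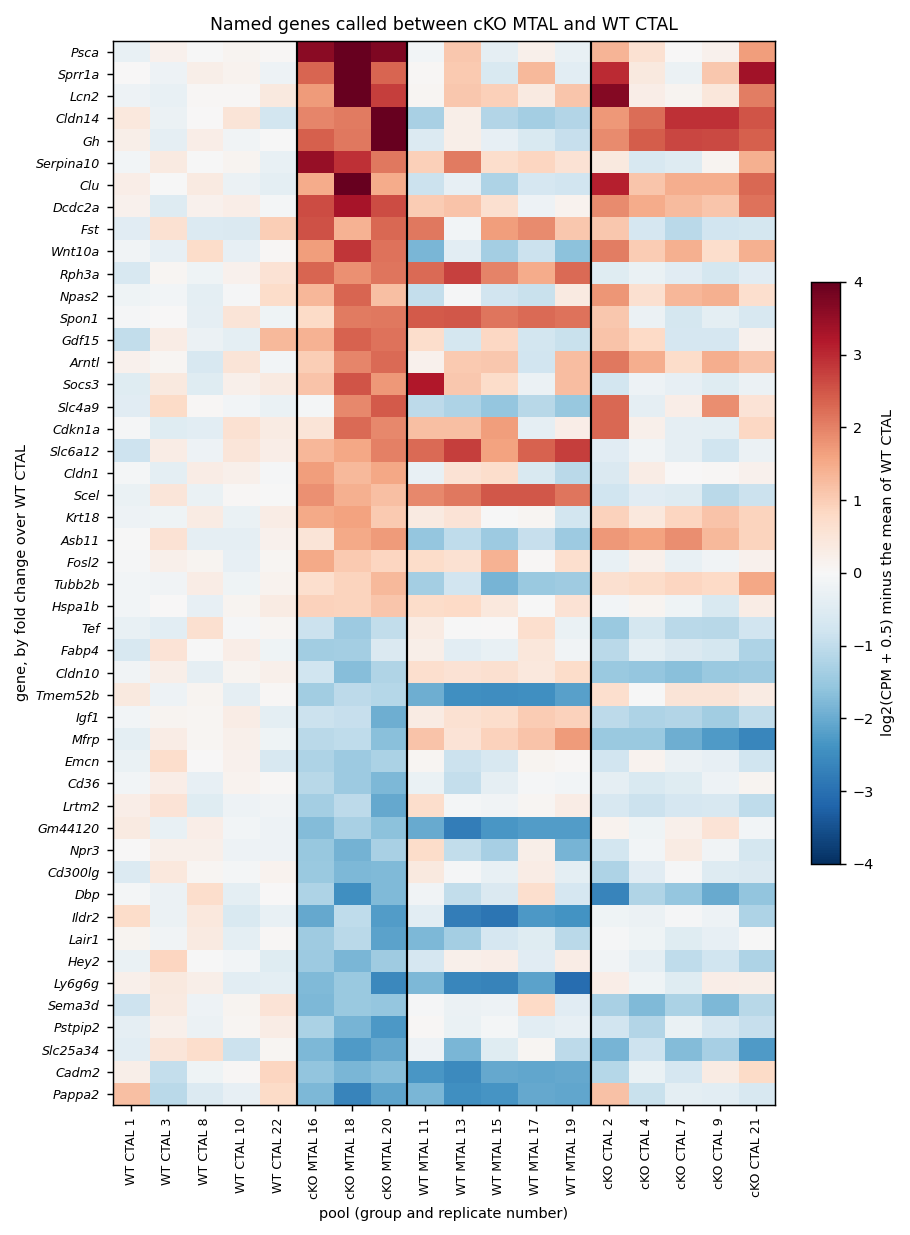
The 48 named genes called between cKO MTAL and WT CTAL, 1 line per gene from the highest to the lowest fold change, in all 18 pools (columns, by group and replicate). Colour is log2(CPM + 0.5) minus the mean of WT CTAL, red for higher and blue for lower. The top genes are red in the 3 cKO MTAL pools and near white in WT MTAL, while *Rph3a*, *Spon1*, *Slc6a12*, *Scel*, *Tmem52b* and *Ly6g6g* are shifted in the same direction in cKO MTAL and WT MTAL.

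The reference for what is medullary or cortical were the 270 genes called between the normal segments, 76 higher (0.652%) and 194 lower (1.67%) in WT MTAL than in WT CTAL. Each was placed by its level in cKO MTAL against WT CTAL. In 93 genes (34.4%) the difference was not called and its 95% interval lay within 2-fold of WT CTAL. In 23 genes (8.52%) cKO MTAL was called in the direction of WT MTAL, and these are named medullary here. Against WT MTAL itself 21 of the 23 were tested. Of these 2 were called, *Tmem52b* toward WT CTAL and *Aoc1*, a diamine oxidase, further away from it, so that *Aoc1* is also among the genes outside both segments below. In 6 genes (2.22%) it was called in the opposite direction, beyond WT CTAL. For 135 genes (50%) no placement was possible because the interval reached past 2-fold without a call, and 13 genes (4.81%), all higher in WT MTAL, did not pass the filter of the 8 pools. These counts are a description, since WT CTAL enters both comparisons.

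The genes lower in WT MTAL had a median log2 fold change of −1.43 between the normal segments and of −0.37 between cKO MTAL and WT CTAL. For the genes higher in WT MTAL the medians were 1.34 and 0.50. Of the 194 lower genes, 73 were placed within 2-fold of WT CTAL, 11 stayed medullary, 5 went beyond and 105 had no placement. Of the 76 higher genes, 20 were within 2-fold, 12 stayed medullary, 1 went beyond and 30 had no placement. Both directions therefore held genes of every class.

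**Figure D2:**
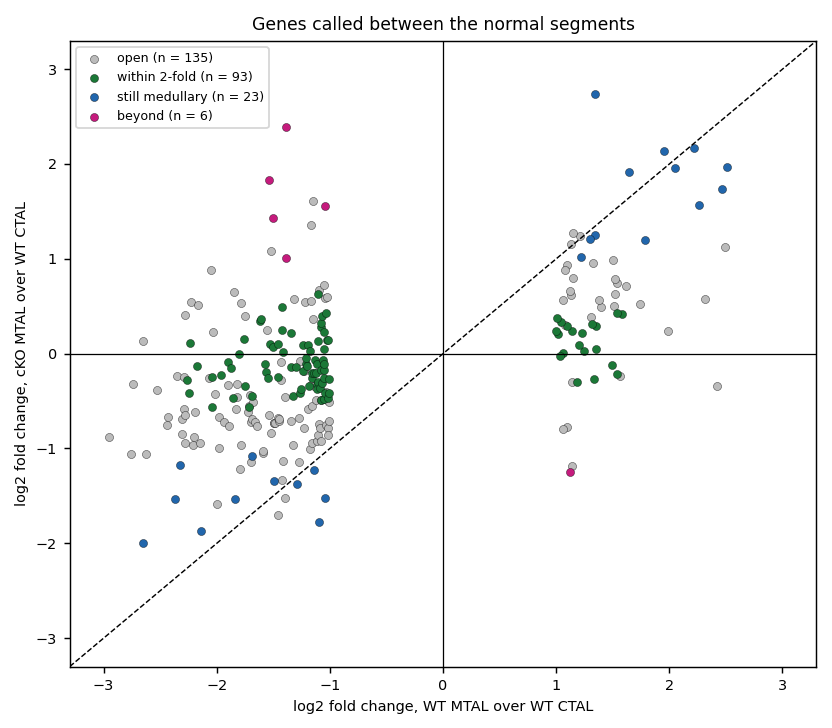
The 257 genes called between the normal segments and tested in both comparisons, with the log2 ratio of the normal segments, MTAL over CTAL (x axis), against that of cKO MTAL over WT CTAL (y axis). The horizontal line at 0 is the level of WT CTAL and the dashed line that of WT MTAL. The 93 green points lie near the horizontal line, the 23 blue points on the WT MTAL side of it, the 6 magenta points on the other side, and the 135 grey points had no placement. Both axes share the WT CTAL pools.

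Cortical genes of divalent cation transport were among those within 2-fold. *Cldn16* (chromosome 16 from 26463135 to 26482765), the claudin of the calcium and magnesium pathway, had 60.1, 85.6 and 61.6 CPM in cKO MTAL and 92.3, 67.4, 78.8, 77.8 and 76.8 CPM in WT CTAL. The ranges overlapped and the log2 fold change was −0.15 (95% interval −0.44 to 0.14, adjusted p = 0.579), while WT MTAL lay at 19.9 to 25.3 CPM. *Pth1r* (chromosome 9 from 110722085 to 110747145), the parathyroid hormone receptor, had 177, 337 and 297 CPM in cKO MTAL and 305, 241, 295, 196 and 245 CPM in WT CTAL. Its log2 fold change was 0.11 (95% interval −0.29 to 0.51), and WT MTAL lay lower, at 43.2 to 69.5 CPM. *Kl*, the FGF23 co-receptor klotho, had 429.5, 555 and 592 CPM in cKO MTAL and 573, 484, 455, 492 and 463 CPM in WT CTAL, with 206 to 257 CPM in WT MTAL. For *Vdr*, the vitamin D receptor, the values were 109, 117 and 150.1 CPM in cKO MTAL and 176, 117, 176, 129.7 and 169.95 CPM in WT CTAL. All 4 genes were thus in the range of the normal CTAL in at least 1 cKO MTAL pool and above every WT MTAL pool in all 3.

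*Foxq1*, a forkhead transcription factor, had 52.6, 59.8 and 100.1 CPM in cKO MTAL and 109, 89.9, 84.7, 72.98 and 129 CPM in WT CTAL, with 16.9 to 25.1 CPM in WT MTAL. Its 95% interval of −0.87 to 0.04 stayed within 2-fold, but replicate 20 alone reached the WT CTAL range. *Igfbp4*, which binds insulin-like growth factors, had 15.9, 38.1 and 21.9 CPM in cKO MTAL and 29.4, 44.5, 35.3, 24.3 and 24.4 CPM in WT CTAL. In WT MTAL it lay at 5.19 to 8.502 CPM, below all 3 cKO MTAL pools. *Thsd4*, an ADAMTS-like protein of microfibrils, had 35.9, 60.4 and 49.8 CPM in cKO MTAL, against 36.7 to 66.8 CPM in WT CTAL and 8.31 to 17.2 CPM in WT MTAL. The kinase gene *Wnk1*, a regulator of cation chloride cotransport, had 477, 511 and 884 CPM in cKO MTAL, against 569 to 829 CPM in WT CTAL and 276 to 308 CPM in WT MTAL. *Tjp3*, which encodes the junction scaffold ZO-3, belonged to the same class with a log2 fold change of −0.42 (95% interval −0.79 to −0.04). *Thsd4* overlaps 4 other annotated genes and *Wnk1* 2, with which reads may have been shared.

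Of the 20 medullary genes within 2-fold of WT CTAL, 11 were called lower than in WT MTAL, and 15 of the 20 still lay on the WT MTAL side of WT CTAL. *Ankrd33b*, an ankyrin repeat gene, had 16.5, 15.8 and 17.7 CPM in cKO MTAL and 9.85, 16.9, 11.9, 13.96 and 12.03 CPM in WT CTAL, with 25.5 to 47.7 CPM in WT MTAL. *Htr1b*, a serotonin receptor, had 28.2, 34.2 and 26.9 CPM in cKO MTAL and 18.3, 28.997, 18.4, 32.6 and 16.2 CPM in WT CTAL, with 43.8 to 89.1 CPM in WT MTAL. *Itga9*, an integrin subunit, had 4.93, 4.69 and 7.19 CPM in cKO MTAL, within the 4.47 to 8.28 CPM of WT CTAL, and 9.27 to 28.5 CPM in WT MTAL. *Ano4*, of the anoctamin family, had 5.99, 2.91 and 5.68 CPM in cKO MTAL and 3.66 to 8.28 CPM in WT CTAL, with 13.96 to 16.8 CPM in WT MTAL. Its 95% interval of −0.95 to 0.7 only just stayed within 2-fold. In all 4 genes every cKO MTAL pool lay below every WT MTAL pool.

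**Figure D3:**
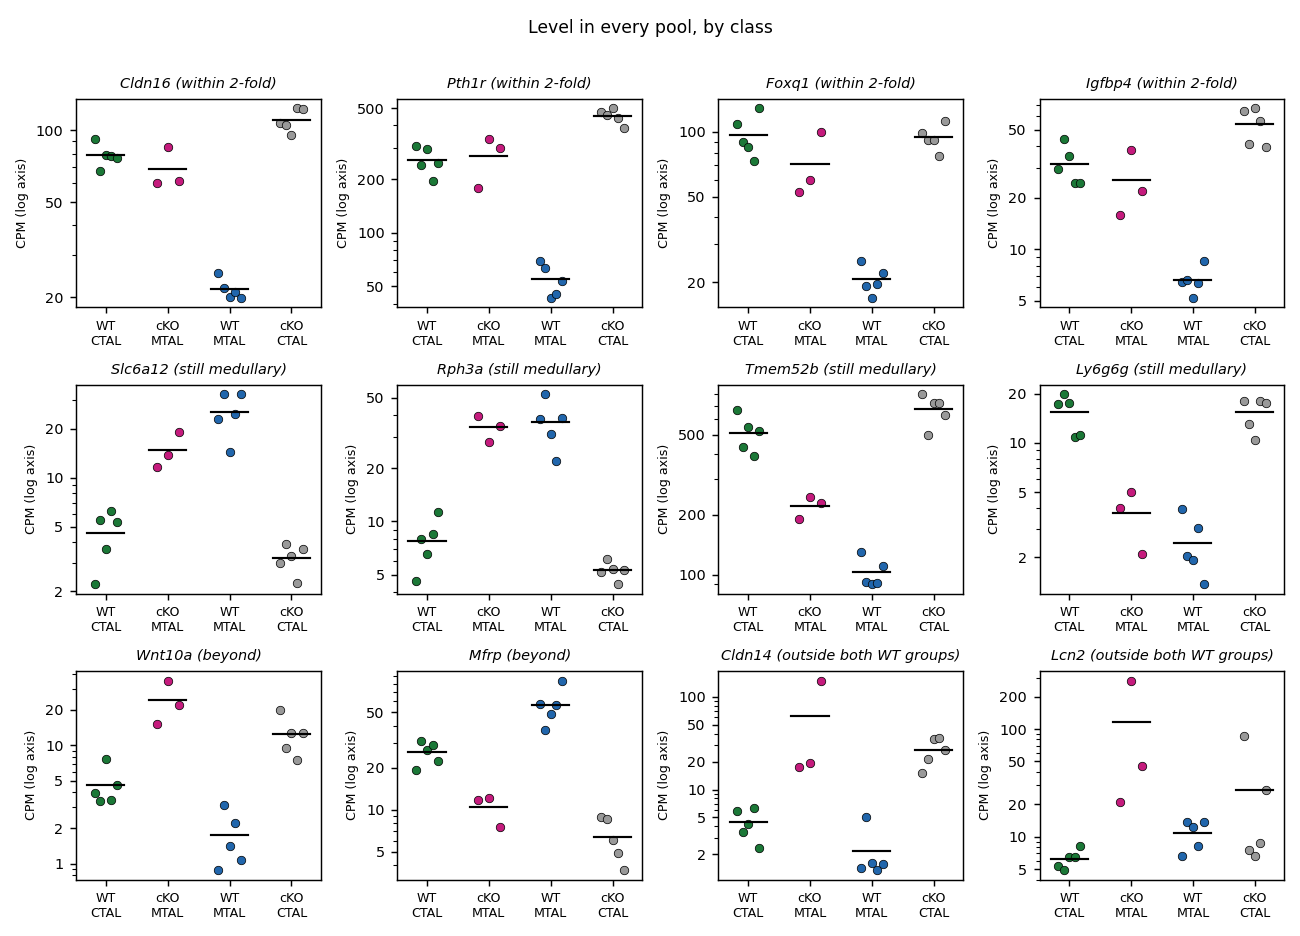
CPM (log axes) of 12 genes in every pool of WT CTAL, cKO MTAL, WT MTAL and cKO CTAL. Points are pools and bars are group means. In the top panels cKO MTAL lies at the level of WT CTAL, in the middle panels it is shifted toward WT MTAL, and in the bottom panels beyond WT CTAL or outside both WT groups.

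Among the genes that stayed medullary, *Slc6a12*, the betaine transporter by which medullary cells take up an osmolyte, had 11.6, 13.8 and 18.95 CPM in cKO MTAL and 2.22, 5.46, 3.67, 6.1999 and 5.32 CPM in WT CTAL. The ranges did not overlap (log2 fold change 1.74 with a standard error of 0.32, adjusted p = 0.0145), and WT MTAL lay at 14.4 to 32.4 CPM, with 2 cKO MTAL pools below this range and 1 within it. *Rph3a*, which encodes rabphilin of vesicle traffic, had 39.2, 27.9 and 34.7 CPM in cKO MTAL and 4.59, 8.002, 6.58, 8.47 and 11.3 CPM in WT CTAL (log2 fold change 2.17 with a standard error of 0.25, adjusted p = 0.000986). WT MTAL had 22.1 to 52.2 CPM, a range that held all 3 cKO MTAL pools. *Scel*, the gene of sciellin, a protein of cornified envelopes, had 57.04, 43.8 and 37.2 CPM in cKO MTAL and 13.04, 22.3, 13.2, 16.5 and 15.9 CPM in WT CTAL (log2 fold change 1.56 with a standard error of 0.2, adjusted p = 0.00189). Its WT MTAL pools were higher still, at 61.8 to 90.97 CPM. *Spon1*, the matrix protein F-spondin, had 4.08, 10.9 and 11.2 CPM in cKO MTAL, 1.64 to 3.42 CPM in WT CTAL and 11.4 to 14.8 CPM in WT MTAL. The call of *Slc6a12* was lost without cKO MTAL replicate 20 (adjusted p = 0.0541), and that of *Spon1* without that pool or WT CTAL replicate 8.

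Other members of the same class were *Nupr1*, a stress-responsive cofactor of transcription (log2 fold change 1.96 with a standard error of 0.3, adjusted p = 0.0051), *Sycn* (6.34, 9.67 and 9.1005 CPM against 1.28 to 2.73 CPM), *Cdkn2b*, an inhibitor of the cell cycle (1.2, adjusted p = 0.0265), and *Slc7a5*, a transporter of large neutral amino acids (1.02, adjusted p = 0.00502). *Socs3*, a feedback inhibitor of cytokine signalling, had 76.1, 199.5 and 116 CPM in cKO MTAL and 24.7, 45.002, 24.5, 39.6 and 44.4 CPM in WT CTAL (log2 fold change 1.91 with a standard error of 0.27, adjusted p = 0.00308). Its WT MTAL pools spread from 29.4 to 319 CPM, with the highest value in replicate 11. Whether *Socs3* keeps its place among medullary genes without that pool is not given here.

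Genes that stayed below the cortical level included *Tmem52b*, a transmembrane protein gene, with 190.4, 244 and 228 CPM in cKO MTAL and 665, 434, 547, 394 and 521 CPM in WT CTAL (log2 fold change −1.18 with a standard error of 0.16, adjusted p = 0.00226). WT MTAL was lower again, at 90.03 to 129 CPM, and differed from cKO MTAL as well (log2 fold change 1.15 with a standard error of 0.13, adjusted p = 8.08e-05), so that *Tmem52b* lay between the normal segments and apart from both. *Ly6g6g*, of the Ly6 family, had 4.01, 5.03 and 2.09 CPM in cKO MTAL and 17.2, 19.8, 17.5, 10.9 and 11.2 CPM in WT CTAL (log2 fold change −2.0 with a standard error of 0.34, adjusted p = 0.0085), with 1.37 to 3.93 CPM in WT MTAL. *Ildr2*, of the family of tricellular junction proteins, had 2.18, 4.98 and 1.85 CPM in cKO MTAL and 18.1, 8.94, 14.3, 6.81 and 8.59 CPM in WT CTAL (log2 fold change −1.87 with a standard error of 0.42, adjusted p = 0.0372). Its call was lost in 6 of the 8 fits that left out 1 of these pools. *Car8*, a catalytically inactive relative of the carbonic anhydrases, had 2.82, 3.45 and 2.203 CPM against 5.73 to 9.81 CPM, and *Mt3*, a metallothionein, 2.46, 1.63 and 2.26 CPM against 5.68 to 8.72 CPM. The unnamed gene *Gm44120* had 24.4, 33.3 and 25.97 CPM against 66.9 to 104 CPM, with 11.7 to 19.998 CPM in WT MTAL.

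Beyond the cortical level lay 5 genes that are lower in WT MTAL than in WT CTAL and 1 that is higher. *Wnt10a*, a Wnt ligand, had 15.2, 35.3 and 21.9 CPM in cKO MTAL and 3.97, 3.39, 7.74, 3.46 and 4.62 CPM in WT CTAL. All 3 cKO MTAL pools were above every WT CTAL pool (log2 fold change 2.39 with a standard error of 0.32, adjusted p = 0.00225), and WT MTAL had 0.8797 to 3.15 CPM. *Tubb2b*, a beta-tubulin, had 53.7, 61.8 and 82.4 CPM in cKO MTAL and 30.8, 30.3, 40.6, 29.4 and 36.6 CPM in WT CTAL (log2 fold change 1.01 with a standard error of 0.15, adjusted p = 0.00489), with 8.81 to 19.2 CPM in WT MTAL. *Arg2*, the mitochondrial arginase, had 15.8, 58.5 and 26.9 CPM in cKO MTAL and 10.6, 14.8, 11.5, 13.2 and 8.89 CPM in WT CTAL (log2 fold change 1.55 with a standard error of 0.32, adjusted p = 0.0224). *Asb11*, a substrate receptor of a ubiquitin ligase, had 6.901, 14.5 and 16.6 CPM, which overlapped the 3.52 to 7.25 CPM of WT CTAL (log2 fold change 1.43, adjusted p = 0.0402). Of the 8 fits that left out a pool, the call was lost in 6 for *Asb11* and in 4 for *Tubb2b*.

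*Slc4a9*, an anion exchanger of intercalated cells, had 5.28, 22.5 and 32.5 CPM in cKO MTAL and 3.97, 9.79, 5.83, 5.12 and 4.51 CPM in WT CTAL (log2 fold change 1.83 with a standard error of 0.44, adjusted p = 0.0497). The ranges overlapped through replicate 16, and the call was lost in 6 of the 8 fits that left out a pool. The summed intercalated cell markers, to which *Slc4a9* belongs, followed the same order of pools, with 51.4, 84.4 and 322 CPM, and the part of such cells in its level was not tested. In the other direction, *Mfrp*, a membrane frizzled-related protein, had 11.8, 12.2 and 7.54 CPM in cKO MTAL and 19.2, 31.3, 26.95, 29.2 and 22.3 CPM in WT CTAL (log2 fold change −1.25 with a standard error of 0.23, adjusted p = 0.0132), while WT MTAL had 37.2 to 84.1 CPM. It overlaps 4 other annotated genes. All 6 genes were also called against WT MTAL. The number of genes in this class fell to 2 without WT CTAL replicate 1, 3, 8 or 10, and *Wnt10a* kept its call in every fit that left out 1 of the 8 pools.

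Of the genes without a placement, *Sfrp1*, a secreted Wnt antagonist, had 159, 146 and 272 CPM in cKO MTAL and 521, 204, 286, 296 and 509 CPM in WT CTAL. WT MTAL had 32.1 to 62.5 CPM, below every pool of the other 2 groups, and the 95% interval of cKO MTAL against WT CTAL was −1.51 to −0.24. *Egf*, the epidermal growth factor precursor, had 12131, 9438 and 14951 CPM in cKO MTAL and 27658, 20054, 22694, 20208 and 22689 CPM in WT CTAL. The groups did not overlap (log2 fold change −0.85 with a standard error of 0.16, adjusted p = 0.0141), the change was under 2-fold, and WT MTAL had 9377 to 13114 CPM. *Uroc1*, an enzyme of histidine breakdown, had 4.37, 5.72 and 3.77 CPM in cKO MTAL, 6.505 to 11.8 CPM in WT CTAL and 0.815 to 2.01 CPM in WT MTAL. *Uroc1* lay between the normal segments without overlap, *Sfrp1* overlapped WT CTAL and *Egf* overlapped WT MTAL. Other such genes overlapped WT CTAL and lay apart from WT MTAL, among them *G6pc*, the phosphatase that releases free glucose, with 13.4, 6.81 and 6.32 CPM in cKO MTAL, 8.18 to 16.6 CPM in WT CTAL and 45.1 to 92.1 CPM in WT MTAL, and *Trac*, the constant chain of the T cell receptor, with 4.23, 4.05 and 2.72, 1.83 to 5.55 and 6.57 to 16.6 CPM.

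*Lama1*, a laminin subunit, had 13.6, 13.6 and 6.49 CPM in cKO MTAL, 5.499 to 9.79 CPM in WT CTAL and 24.7 to 49.7 CPM in WT MTAL. *Slc14a1*, the urea transporter UT-B, had 4.9996, 4.59 and 3.19 CPM, 1.36 to 3.11 CPM and 6.99 to 15.7 CPM in the same order of groups, so that cKO MTAL lay between the normal segments without overlap. *Mapk4* and *Papln* varied from 2.11 to 11.5 CPM and from 3.098 to 18.4 CPM within cKO MTAL, and their intervals of −1.44 to 0.8 and −1.11 to 1.37 allow more than one placement.

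In 84 genes cKO MTAL was called against both WT CTAL and WT MTAL in the same direction, so that it resembled neither normal segment. Of these, 64 were higher, which is 64% of the 100 genes higher than in WT CTAL, and 20 were lower, 43.5% of the 46 lower genes. The cKO MTAL pools enter both comparisons and the counts were not tested. Without cKO MTAL replicate 20 the counts were 42 and 10, and without replicate 18 the first was 265.

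Among these rises were genes barely expressed in normal limbs. *Psca* (chromosome 15 from 74714839 to 74717069), a GPI-anchored surface protein of urothelium, had 15.2, 30.4 and 16.7 CPM in cKO MTAL and 0.545, 0.941, 0.786, 0.881 and 0.842 CPM in WT CTAL, with 0.504 to 2.24 CPM in WT MTAL. *Sprr1a*, a precursor of the cornified envelope, had 4.51, 25.8 and 4.58 CPM in cKO MTAL and 0.506, 0.377, 0.687, 0.6098 and 0.371 CPM in WT CTAL. *Gh*, growth hormone, had 5.99, 4.93 and 20.1 CPM in cKO MTAL and 0.973, 0.471, 0.998, 0.644 and 0.741 CPM in WT CTAL. *Sprr1a* was highest in replicate 18 and *Gh* in replicate 20, and the filter let the 3 genes in only through these pools. The 7 urothelium markers, *Psca* included, summed to 21.97, 56.6 and 21.3 CPM in cKO MTAL and to 5.22 to 11.7 CPM in WT CTAL. *Psca* alone supplied 15.2, 30.4 and 16.7 CPM of the cKO MTAL sums, which thus largely restate its rise. Whether urothelial cells contributed was not tested.

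*Cldn14* (chromosome 16 from 93919031 to 94008837), the claudin that reduces the calcium and magnesium pathway, had 17.6, 19.2 and 149.7 CPM in cKO MTAL and 5.88, 3.48, 4.29, 6.302 and 2.32 CPM in WT CTAL (log2 fold change 3.82 with a standard error of 0.6, adjusted p = 0.00557). Replicate 20 carried most of the mean, and without it the log2 fold change was 2.09. *Lcn2*, which encodes lipocalin-2, and *Clu*, the chaperone clusterin, are markers of tubular injury. *Lcn2* had 21.1, 282 and 44.98 CPM in cKO MTAL and 5.33, 4.896, 6.43, 6.47 and 8.25 CPM in WT CTAL (log2 fold change 4.21 with a standard error of 0.6, adjusted p = 0.00308). *Clu* had 131, 886 and 132 CPM in cKO MTAL and 56.9, 46.1, 60.5, 39.3 and 35.7 CPM in WT CTAL (log2 fold change 3.03 with a standard error of 0.5, adjusted p = 0.00736). Here replicate 18 carried most of the mean, and without it the log2 fold changes were 2.44 and 1.52, both still called, while *Clu* lost the call with the *Xist* term. *Serpina10*, an inhibitor of coagulation proteases, had 18.7, 12.7 and 7.01 CPM against 0.9096 to 1.69 CPM, and *Dcdc2a*, of the doublecortin family, 63.2, 101 and 63.2 CPM against 6.78 to 11.9 CPM (log2 fold change 2.93 with a standard error of 0.2, adjusted p = 6.37e-06, for *Dcdc2a*). *Dcdc2a* was called against WT MTAL as well. In cKO CTAL, the cortical limb of the same genotype, *Cldn14* lay at 15.1 to 35.6 CPM and *Lcn2* at 6.67 to 85.5 CPM.

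Among the 20 genes lower than in both normal segments, *Sema3d*, a guidance molecule, had 0.915, 1.28 and 1.22 CPM in cKO MTAL and 2.297, 5.84, 3.86, 4.91 and 6.74 CPM in WT CTAL. *Hey2*, a target of Notch, had 1.197, 0.789 and 1.22 CPM in cKO MTAL and 3.35, 7.91, 4.03, 3.79 and 2.83 CPM in WT CTAL. *Pstpip2*, an adaptor of the actin cytoskeleton, had 1.83, 1.04 and 0.638 CPM against 3.82 to 6.401 CPM. These are low levels that passed the filter through WT CTAL only, and of the 8 fits that left out a pool the call was lost in 6 for *Sema3d*, in 7 for *Hey2* and in 2 for *Pstpip2*. *Slc25a34*, a mitochondrial carrier, had 5.63, 3.85 and 4.58 CPM in cKO MTAL and 15.3, 29.1, 34.2, 11.1 and 21.7 CPM in WT CTAL (log2 fold change −2.21 with a standard error of 0.36, adjusted p = 0.00751), and its call held in all of them. *Lrtm2* had 9.37, 11.7 and 5.62 CPM against 17.6 to 36.6 CPM, a call lost without replicate 20.

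Of the 11 endothelial markers, 1 (*Emcn*) was called lower, 9.09% against 1.21% of all genes. *Cd300lg*, of the CD300 family and outside that list, had 8.94, 7.15 and 7.25 CPM in cKO MTAL and 17.8, 35.1, 27.4, 24.5 and 28.5 CPM in WT CTAL (log2 fold change −1.73 with a standard error of 0.23, adjusted p = 0.00226), and *Emcn*, endomucin, had 11.3, 9.67 and 11.2 CPM in cKO MTAL and 22.9, 44.7, 27.95, 30.9995 and 17.6 CPM in WT CTAL (log2 fold change −1.38 with a standard error of 0.27, adjusted p = 0.0199). *Cd36*, the fatty acid translocase, had 25.8, 20.5 and 15.9 CPM in cKO MTAL and 52.7, 67.6, 44.4, 62.03 and 58.3 CPM in WT CTAL (log2 fold change −1.41 with a standard error of 0.19, adjusted p = 0.00226), and *Fabp4*, a fatty acid binding protein, 20.1, 20.6 and 35.1 CPM against 34.2 to 77.9 CPM. The 11 endothelial markers summed to 233 to 371 CPM in cKO MTAL, 334 to 671 CPM in WT CTAL and 419.8 to 637 CPM in WT MTAL, and all were detected in each group. Their part in these falls was not tested, and in pooled tissue fewer cells of a type and less RNA per cell cannot be told apart. The call of *Emcn* was lost without cKO MTAL replicate 20 and with the *Xist* term. The call of *Fabp4* was lost in 6 of the 8 fits that left out a pool and with library sizes from total counts.

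A further 3 genes were lower but passed the filter through WT CTAL only. *Pappa2*, a protease of IGF-binding proteins and a marker of the macula densa, had 0.845, 0.247 and 0.5796 CPM in cKO MTAL and 10.3, 1.69, 2.68, 3.22 and 7.48 CPM in WT CTAL. *Cadm2*, a cell adhesion molecule, had 1.06, 0.789 and 0.927 CPM against 1.88 to 7.85 CPM, and *Lair1*, an inhibitory receptor of leukocytes, 0.986, 1.38 and 0.406 CPM against 2.51 to 4.599 CPM. WT MTAL lay at 0.359 to 0.821, 0.296 to 0.611 and 0.645 to 2.35 CPM, and the 3 genes did not pass the filter of the other comparisons. The macula densa, which lies at the cortical end of the limb, had 8 markers that summed to 67.4 to 115 CPM in WT CTAL, 31.3 to 49.4 CPM in cKO MTAL and 29.3 to 42.3 CPM in WT MTAL, and its part in *Pappa2* was not tested. The call of *Pappa2* was lost without cKO MTAL replicate 18 or 20, that of *Lair1* in 7 and that of *Cadm2* in 4 of the 8 fits that left out a pool, and all 3 with limma on TPM.

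**Figure D4:**
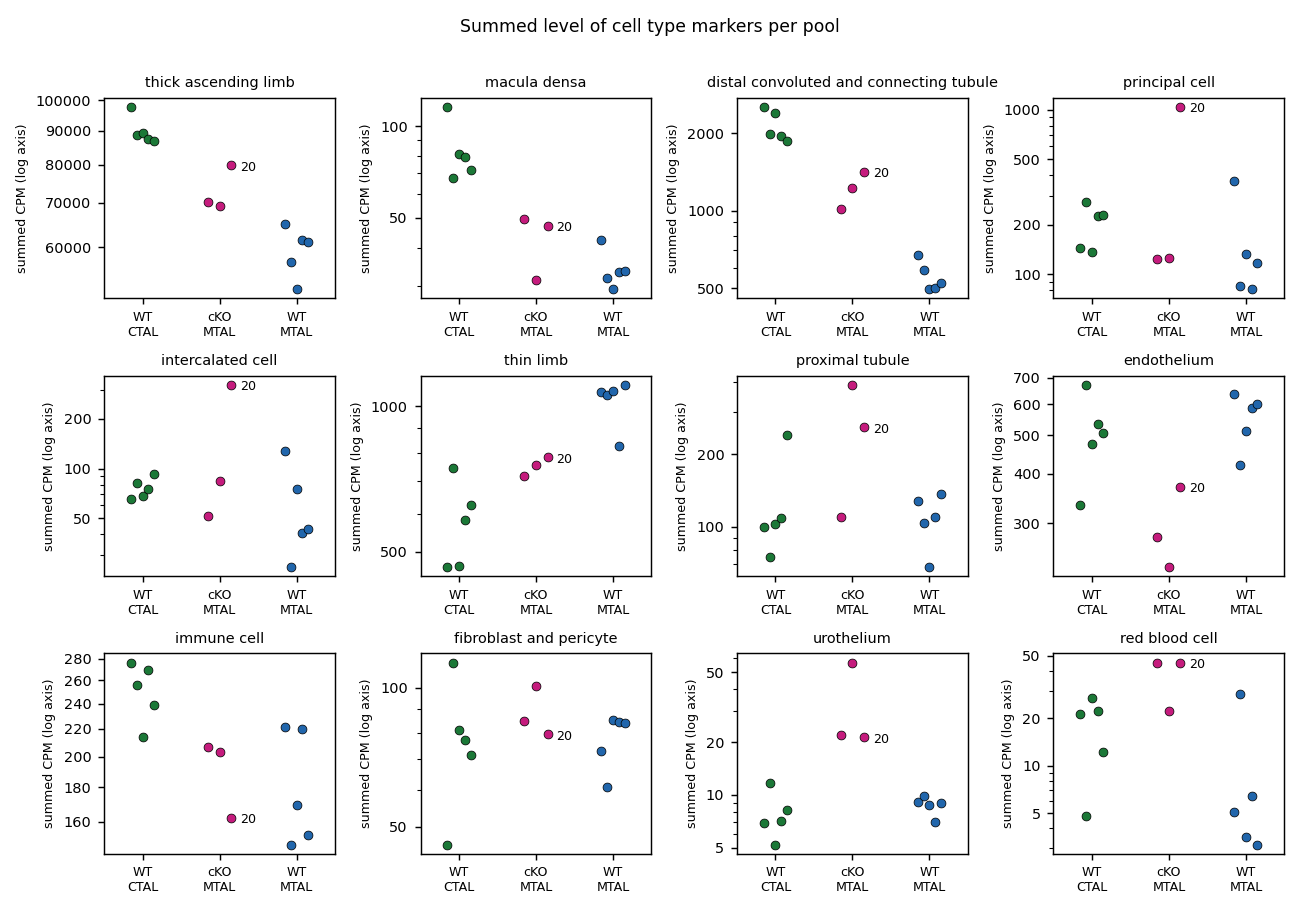
Summed CPM (log axes) of the markers of 12 cell types in each pool of WT CTAL, cKO MTAL and WT MTAL, with cKO MTAL replicate 20 labelled. The thick limb markers sum to 69213 to 79799 CPM in cKO MTAL, between the ranges of the WT groups. Replicate 20 stands apart for principal and intercalated cells, and the cKO MTAL pools lie low for endothelium.

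Markers of other cell types were read in the same pools. The 10 thick limb markers were all expressed and 1 (10%) was called, *Cldn10*, on which the cKO pools had been selected. Over all genes 1.21% were called, the share to hold beside each count of this paragraph. None of the 9 principal cell markers was called, yet *Aqp2*, the water channel of principal cells, had 38.5, 50.3 and 539 CPM in cKO MTAL and 50.03, 104, 44.3, 95.5 and 74.5 CPM in WT CTAL, and the high value was that of replicate 20. The 9 markers of distal convoluted and connecting tubule summed to 1012 to 1413 CPM in cKO MTAL, 1872 to 2530 CPM in WT CTAL and 496 to 673 CPM in WT MTAL, and none of the 6 tested was called. Of the thin limb markers, *Fst*, follistatin, had 9.44, 3.996 and 7.94 CPM in cKO MTAL and 0.7397, 2.07, 0.671, 0.644 and 2.83 CPM in WT CTAL, which let it pass the filter through cKO MTAL only, and its call was lost without WT CTAL replicate 1, 8 or 10. A call was made for 1 of the 9 intercalated markers tested (*Slc4a9*, 11.1%). Proximal tubule markers summed to 109 to 389.5 CPM against 74.8 to 241 CPM, and *Slc2a2* stayed at or below 0.888 CPM. No marker of immune cells, fibroblasts, podocytes or red blood cells was called.

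The members of 15 pathway lists were then read. Among the 26 genes of claudins and junctions, 2 were higher, 2 were lower and 19 (73.1%) lay within 2-fold with their interval, against 1.21% called and 76.2% within 2-fold over all genes (median log2 fold change 0.18, against 0.01 over all genes). The called genes were *Cldn14*, *Cldn10* and *Ildr2*, given above, and *Cldn1*, a sealing claudin, with 14.4, 10.9 and 13.1 CPM in cKO MTAL and 3.93, 3.01, 5.22, 4.88 and 3.98 CPM in WT CTAL (log2 fold change 1.64 with a standard error of 0.26, adjusted p = 0.00627). *Cldn1* was called in every fit, and *Cldn10* was the gene on which the cKO pools had been selected. *Ildr1*, of the tricellular junction, had 181, 184 and 174 CPM in cKO MTAL and 119.7, 126, 119.9, 128 and 141 CPM in WT CTAL, a difference past the adjusted p but under 2-fold (log2 fold change 0.54 with a standard error of 0.09, adjusted p = 0.0084). *Cldn19*, the partner of *Cldn16*, had 417, 533 and 564 CPM in cKO MTAL and 440.03, 372, 396, 402 and 466 CPM in WT CTAL, with a 95% interval of 0.08 to 0.56 and 271 to 394 CPM in WT MTAL. *Cldn3* had 16.8, 24.5 and 31.8 CPM against 17.5 to 22.3 CPM. The Cre driver gene *Cdh16* (Ksp-cadherin) had 1814, 1549.99 and 2137 CPM against 1451 to 1695 CPM.

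No member of the 18 divalent cation genes tested was called, and 13 (72.2%) lay within 2-fold, both near the shares of all genes (median −0.11). *Casr*, the calcium-sensing receptor, had 666, 794 and 785 CPM in cKO MTAL and 1077, 888, 969.8, 811 and 958 CPM in WT CTAL. Every cKO MTAL pool was below every WT CTAL pool (log2 fold change −0.29 with a standard error of 0.11, adjusted p = 0.165, 95% interval −0.52 to −0.06) and above the 420.1 to 537 CPM of WT MTAL. *Umod*, uromodulin, had 40645, 44687 and 46716 CPM in cKO MTAL and 44958 to 51294 CPM in WT CTAL, with 23565 to 32278 CPM in WT MTAL (95% interval −0.33 to 0.11). *Egf* was the only member past the adjusted p. Between the normal segments 7 of 17 tested members were called, all lower in WT MTAL, 41.2% against 2.32% of all genes.

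None of the 24 genes of NaCl and potassium transport was called, and 21 (87.5%) lay within 2-fold, against 1.21% and 76.2% of all genes (median 0.01). *Slc12a1*, which encodes NKCC2, had 13793, 11416 and 14338 CPM in cKO MTAL and 14414, 13531, 13644, 15191 and 14999.8 CPM in WT CTAL (95% interval −0.32 to 0.16). *Kcnj1*, the apical channel ROMK, had 1211, 1218 and 1259.8 CPM against 1089.5 to 1298 CPM (95% interval −0.12 to 0.29). The basolateral channel genes *Kcnj10* and *Kcnj16* had intervals of −0.29 to 0.21 and −0.29 to 0.24, and the chloride channel subunit *Bsnd* of −0.11 to 0.4. *Atp1b1*, the beta subunit of the sodium pump, had an interval of −0.11 to 0.28. *Fxyd2*, a regulator of the pump, had 1731, 1564 and 1320.3 CPM in cKO MTAL, 1040.01 to 1614 CPM in WT CTAL and 2273 to 3246 CPM in WT MTAL, so that it was at the cortical level. *Maged2*, which stabilizes NKCC2 before birth, had 27.3, 33.8 and 28.4 CPM against 25.6 to 28.3 CPM.

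Of 17 acid-base and ammonium genes none was called and 9 (52.9%) lay within 2-fold, against 1.21% and 76.2% of all genes (median 0.14). *Slc9a3*, the apical sodium proton exchanger NHE3, had 600.2, 569.6 and 610.4 CPM in cKO MTAL and 596, 626, 599, 600.5 and 629 CPM in WT CTAL (95% interval −0.19 to 0.19). *Car15*, a membrane carbonic anhydrase, had 233, 492 and 589 CPM in cKO MTAL and 244 to 358 CPM in WT CTAL, against 46.6 to 92.4 CPM in WT MTAL. Its interval of 0.06 to 1.02 gave it no placement. *Car2*, the cytosolic carbonic anhydrase, had 270.1, 387 and 315 CPM against 214 to 266 CPM without overlap (adjusted p = 0.0614), and WT MTAL had 312 to 394 CPM. Cortical and medullary values thus occurred in the same list.

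Of 27 hormone receptor and cAMP genes, 1 (3.7%) was lower and 21 (77.8%) lay within 2-fold, against 0.383% and 76.2% of all genes. *Npr3*, the clearance receptor of natriuretic peptides, had 4.86, 3.65 and 5.74 CPM in cKO MTAL and 15.03, 16.9, 17.1, 12.6 and 12.6 CPM in WT CTAL (log2 fold change −1.61 with a standard error of 0.25, adjusted p = 0.0051). WT MTAL spread from 3.67 to 25.1 CPM. *Pde1a*, a phosphodiesterase, was lower by under 2-fold (log2 fold change −0.58 with a standard error of 0.12, adjusted p = 0.021). *Ptger3*, a prostaglandin E2 receptor, *Adcy6*, an adenylyl cyclase, and *Gnas*, the stimulatory G protein, had intervals of −0.6 to 0.07, −0.17 to 0.26 and −0.15 to 0.28. The kinase subunits *Prkaca*, *Prkag1* and *Prkag2*, which belong to protein kinase A and AMP-activated kinase, had −0.17 to 0.35, 0.14 to 0.78 and −0.25 to 0.48.

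None of 27 transcription factors of the limb was called and 23 (85.2%) lay within 2-fold, near the 1.21% and 76.2% of all genes (median 0.08), and none of 22 Hox genes was called (median 0.23). *Tfcp2l1* had 506, 889 and 752 CPM in cKO MTAL, 460.4 to 817 CPM in WT CTAL and 288 to 440.2 CPM in WT MTAL. *Hoxd8* had 155, 214 and 237 CPM, 195 to 229 CPM and 95.01 to 137 CPM in the same order. Both were at the cortical level. *Irx3* had 60.6, 52.6 and 75.6 CPM against 42.3 to 85.2 CPM (95% interval −0.22 to 0.68). *Ehf* and *Elf3*, epithelial factors, had log2 fold changes of 0.97 (adjusted p = 0.00666) and 0.87 (adjusted p = 0.0386), past the adjusted p and under 2-fold.

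Responses to the medullary environment were mixed. Of 17 osmolyte and tonicity genes, *Slc6a12* and *Hspa1b* were higher and none was lower, 11.8% called against 1.21% of all genes (median 0.15). Within 2-fold lay 64.7%, against 76.2% of all genes. *Hspa1b*, an inducible heat shock protein, had 269, 267 and 313 CPM in cKO MTAL and 134, 144, 113, 154 and 179 CPM in WT CTAL (log2 fold change 1.01 with a standard error of 0.13, adjusted p = 0.00187). The change was close to 2-fold and fell below it in 3 fits without a pool, and the near-identical *Hspa1a* could have taken or given reads. *Nfat5*, the transcription factor of the tonicity response, had 164, 199 and 199 CPM against 155 to 224 CPM, below the 229 to 353 CPM of WT MTAL. *Slc5a3*, the transporter of myo-inositol, had 1988, 1838 and 1801 CPM against 1327 to 2279 CPM. The betaine transporter thus stayed medullary while the tonicity factor itself was at the cortical level.

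Of 18 hypoxia genes none was called, near the 1.21% of all genes (median 0.03). *Ldha*, lactate dehydrogenase A, had 189, 283 and 211 CPM in cKO MTAL and 121, 142, 124, 138 and 134 CPM in WT CTAL (log2 fold change 0.83 with a standard error of 0.12, adjusted p = 0.00332), and *Slc2a1*, the glucose transporter GLUT1, had 252, 278 and 254 CPM in cKO MTAL and 149, 174, 138, 178 and 149 CPM in WT CTAL (log2 fold change 0.77 with a standard error of 0.11, adjusted p = 0.00251). Both were higher without overlap, by under 2-fold. *Vegfa* and *Pgk1* had intervals of −0.15 to 0.55 and −0.19 to 0.25. None of 25 genes of glycolysis and gluconeogenesis was called, near the 1.21% of all genes (median 0.17). Intervals were 0.04 to 0.46 for *Hk1*, −0.03 to 0.38 for *Aldoa*, −0.02 to 0.53 for *Pkm* and −0.22 to 0.18 for *Ldhb*. Of 23 genes of fatty acid uptake and oxidation, *Cd36* and *Fabp4* were lower, 8.7% called against 1.21% of all genes (median −0.23). Within 2-fold lay 87%, against 76.2% of all genes. *Cpt1a*, which admits fatty acids to mitochondria, had 584, 462 and 574 CPM in cKO MTAL and 773, 837, 933, 743 and 828 CPM in WT CTAL, lower by under 2-fold (log2 fold change −0.56 with a standard error of 0.12, adjusted p = 0.0269), whereas *Acsl1*, *Acadm* and *Hadha* had log2 fold changes of −0.33, −0.2 and −0.17 and did not pass (adjusted p = 0.148, adjusted p = 0.26 and adjusted p = 0.314).

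Tubular injury genes held the largest share of calls among the 15 lists. Of 21 tested, 5 were called higher and none lower, 23.8% against 1.21% of all genes (median 0.82, against 0.01). Besides *Lcn2* and *Clu* these were *Cdkn1a*, the cell cycle inhibitor p21, with 11.3, 38.8 and 30.7 CPM in cKO MTAL and 7.48, 5.27, 5.597, 11.99 and 9.77 CPM in WT CTAL (log2 fold change 1.77 with a standard error of 0.35, adjusted p = 0.0198), *Gdf15*, a stress cytokine, with 11.3, 22.5 and 20.1 CPM in cKO MTAL and 1.79, 5.08, 3.35, 2.95 and 10.5 CPM in WT CTAL (log2 fold change 1.96 with a standard error of 0.45, adjusted p = 0.0402), and *Krt18*, a keratin of simple epithelia, with 28.9, 30.6 and 20.4 CPM in cKO MTAL and 8.33, 8.57, 12.4, 8.097 and 12.1 CPM in WT CTAL (log2 fold change 1.46 with a standard error of 0.22, adjusted p = 0.00368). *Krt18* was called in every alternative, *Gdf15* in 2 of the 8 fits that left out a pool and *Cdkn1a* in 6. *Spp1*, osteopontin, had 1966, 7830.3 and 1918 CPM in cKO MTAL and 1615, 1443, 1549.6, 1361 and 1387 CPM in WT CTAL, and it missed the threshold with all pools (log2 fold change 1.44 with a standard error of 0.35, adjusted p = 0.0506). *Vim*, vimentin, had 620.4, 164 and 301 CPM in cKO MTAL and 201, 198, 202, 174 and 245 CPM in WT CTAL, with the high value in replicate 16. *Krt7* had an interval of −0.06 to 0.4, within 2-fold.

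Of 18 immediate early genes, which respond rapidly to stimuli, *Socs3* and *Fosl2* were higher, 11.1% against 1.21% of all genes (median 0.54). Within 2-fold lay 44.4%, against 76.2% of all genes. *Fosl2*, a subunit of AP-1, had 45.8, 32.7 and 28.98 CPM in cKO MTAL and 15.2, 18.1, 16.8, 12.3 and 16.6 CPM in WT CTAL (log2 fold change 1.23 with a standard error of 0.19, adjusted p = 0.00502). *Junb* was higher by under 2-fold (log2 fold change 0.9 with a standard error of 0.22, adjusted p = 0.0495). *Fos* and *Egr1* had 496, 595 and 634 CPM against 221.6 to 506 CPM and 449.7, 441 and 501 CPM against 218 to 466 CPM, and the groups overlapped.

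Genes of the circadian clock moved in both directions. In the clock, BMAL1 (*Arntl*) pairs with CLOCK or NPAS2 to activate genes through E-boxes, and the outputs *Dbp* and *Tef* encode factors that bind D-boxes. Of 19 tested, *Arntl* and *Npas2* were higher and *Dbp* and *Tef* lower, 21.1% against 1.21% of all genes (median −0.44). The 21.1% includes *Npas2*, which could enter only if it was higher in cKO MTAL. *Arntl* had 8.66, 17.3 and 21.7 CPM in cKO MTAL and 4.75, 4.33, 2.44, 6.098 and 3.77 CPM in WT CTAL (log2 fold change 1.93 with a standard error of 0.33, adjusted p = 0.0102). *Npas2* had 4.23, 8.93 and 3.83 CPM in cKO MTAL and 1.17, 1.22, 0.916, 1.29 and 2.59 CPM in WT CTAL, and it passed the filter through cKO MTAL only. *Dbp* had 45.1, 19.04 and 31.4 CPM in cKO MTAL and 102, 90.9, 176, 80.9 and 108 CPM in WT CTAL (log2 fold change −1.76 with a standard error of 0.3, adjusted p = 0.00875), and *Tef* had 80.1, 52.2 and 73.3 CPM in cKO MTAL and 118, 107, 227, 141 and 154 CPM in WT CTAL (log2 fold change −1.08 with a standard error of 0.23, adjusted p = 0.0285). The ranges of *Arntl*, *Dbp* and *Tef* did not overlap between the groups. *Nr1d2*, a repressor of *Arntl*, was lower by under 2-fold (log2 fold change −0.95 with a standard error of 0.14, adjusted p = 0.00332), and *Nr1d1* and *Per1* had intervals of −0.83 to −0.11 and −0.24 to 0.61. Between the normal segments none of 17 clock genes was called, near the 2.32% of all genes in that comparison. The call of *Npas2* was lost without WT CTAL replicate 1, 3, 8 or 10, it was not tested without a cKO MTAL pool, and that of *Tef* without any of 5 pools, while those of *Arntl* and *Dbp* held in each such fit. With the *Xist* term the call of *Arntl* was lost (adjusted p = 0.0518). The hour at which each animal was killed was not analysed here.

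The 250 bases before the first listed start of these 4 genes (RefSeq, GRCm38.p6) are shown because the genes belong to 1 loop. They were searched on both strands for the E-box CACGTG, which 6.02% of the 32851 promoter windows of the table hold, and for the D-box TTANGTAA, which 2.06% hold. Capitals mark the match, 1 E-box before *Tef*, and no other window held either motif. A match is a description of letters only.
Arntl (chr7:113207215-113207464, + strand): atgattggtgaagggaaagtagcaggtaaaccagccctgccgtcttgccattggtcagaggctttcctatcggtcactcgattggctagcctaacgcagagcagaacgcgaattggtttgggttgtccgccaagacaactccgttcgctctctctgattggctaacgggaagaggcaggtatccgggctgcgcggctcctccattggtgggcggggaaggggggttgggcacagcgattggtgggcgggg
Npas2 (chr1:39194022-39194271, + strand): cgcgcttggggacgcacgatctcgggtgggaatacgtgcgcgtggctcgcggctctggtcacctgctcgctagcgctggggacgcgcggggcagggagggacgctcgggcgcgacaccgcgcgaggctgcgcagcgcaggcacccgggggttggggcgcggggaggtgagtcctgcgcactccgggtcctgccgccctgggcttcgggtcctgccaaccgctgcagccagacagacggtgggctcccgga
Dbp (chr7:45704997-45705246, + strand): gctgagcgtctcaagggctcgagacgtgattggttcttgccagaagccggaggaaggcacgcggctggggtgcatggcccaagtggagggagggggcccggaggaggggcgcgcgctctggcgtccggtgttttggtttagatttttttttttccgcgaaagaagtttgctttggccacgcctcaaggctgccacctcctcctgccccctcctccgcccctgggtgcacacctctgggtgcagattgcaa
Tef (chr15:81802423-81802672, + strand): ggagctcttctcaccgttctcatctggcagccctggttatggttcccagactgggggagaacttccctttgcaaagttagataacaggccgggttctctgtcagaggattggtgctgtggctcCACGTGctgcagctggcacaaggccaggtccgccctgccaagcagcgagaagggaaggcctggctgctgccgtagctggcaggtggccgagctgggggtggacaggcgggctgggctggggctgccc

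Of 16 genes of the growth hormone and IGF axis, 1 (*Gh*) was called higher and 1 (*Igf1*) lower, against 1.21% called over all genes (median −0.04). The called genes include *Gh*, which passed the filter through cKO MTAL only and could enter only if it was higher there. *Igf1*, insulin-like growth factor 1, had 10.1, 9.82 and 4.52 CPM in cKO MTAL and 17.3, 20.5, 20.1, 23.4 and 14.2 CPM in WT CTAL (log2 fold change −1.19 with a standard error of 0.28, adjusted p = 0.0447), with 23.7 to 38.99 CPM in WT MTAL. Its call was lost in 5 of the 8 fits that left out a pool. *Igfbp7* was higher and *Igfbp5* lower by under 2-fold (for *Igfbp7* log2 fold change 0.71 with a standard error of 0.14, adjusted p = 0.02, for *Igfbp5* log2 fold change −0.79 with a standard error of 0.15, adjusted p = 0.0184). The receptors *Ghr* and *Igf1r* had intervals of −0.53 to −0.07 and −0.27 to 0.16.

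Of the 217 tested genes of the study's own list of 218 distinct thick limb genes, 3 were higher (*Cldn1*, *Cldn14* and *Slc4a9*) and 4 lower (*Car8*, *Cldn10*, *Ildr2* and *Npr3*), 3.23% against 1.21% of all genes. In 164 of them (75.6%) the 95% interval lay within 2-fold, and the median log2 fold change was 0.02. The list is the study's own and gives no independent evidence of a direction, and *Cldn10* had served to select the cKO pools.

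**Figure D5:**
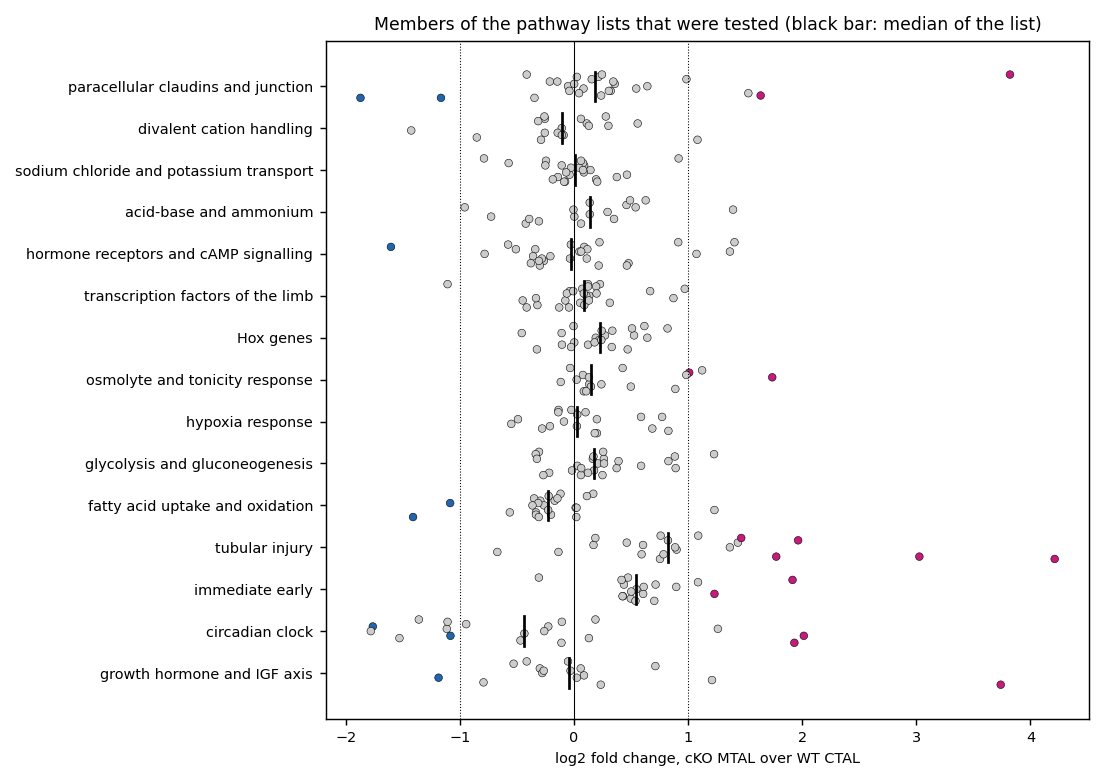
Log2 fold change of cKO MTAL over WT CTAL for the tested members of 15 pathway lists. Points are genes, magenta for those called higher, blue for those called lower and grey for the others, and black bars are list medians. The lists of transport, hormone receptors and transcription factors centre near 0, tubular injury centres at 0.82, and clock genes stand on both sides.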

How the data were processed

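RNA of microdissected tubules was sequenced with a strand-specific poly-A kit in paired-end mode. The authors trimmed reads with fastp and mapped and quantified them with DRAGEN on mm10. The strand setting of the counting is not given in the sources used here. The deposited values are estimated counts per gene and, in a second table, TPM computed by the authors. Estimated counts were rounded to whole numbers, although a test of whole counts had been planned.

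Groups followed the labels, and WT CTAL replicate 1 its pool name. Genes that reached 3 CPM in 3 pools or more (5 for WT MTAL against WT CTAL) were fitted with the quasi-likelihood test of edgeR 4.0.16 (TMM factors, R 4.3.3), each comparison over its own pools. A gene was called when its Benjamini-Hochberg adjusted p was under 0.05 and it changed by 2-fold or more. CPM used TMM library sizes over 18 pools. The fit was tested on simulated data. No pool duplicated another, since replicate counts differed by more than sampling noise. The pools came from separate animals.

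Genes were named by rule. It took the 8 strongest rises and 8 strongest falls among called genes without overlap of ranges, the 4 largest segment differences in each class and direction, the 6 largest changes away from both segments in each direction, the called members of each list, and up to 4 further members per list by level or because the study measured them. *Arg2*, *Car8*, *Cdkn2b*, *Ehf*, *Elf3*, *Hspa1a*, *Mt3*, *Nupr1*, *Slc7a5*, *Sycn*, *Tjp3* and *Wnk1* were named after their values were seen and were not run singly under the alternatives. The members and lists were chosen with earlier results of these data known. Alternatives were other normalizations and filters, DESeq2 1.42.0, edgeR's likelihood ratio test, limma 3.58.1 on log2(TPM + 0.5), 1 fit of 18 pools, and each pool left out. Some genes are not reported here.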

Additional observations from a re-analysis of the deposited data

Results flagged for a closer look

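In groups of 5 pools, the highest or lowest pool of a named gene was set against the rest by Dixon's test. Of 259 groups, 20 (7.72%) held a pool that stood apart, where chance gives about 1 in 20. Explanations were not tested.

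In WT CTAL, replicate 8 was the highest for 3 genes, with 176 CPM of *Dbp*, 181 CPM of *Nr1d2* and 7.74 CPM of *Wnt10a*. Replicate 3 was the highest for *Hey2* (7.91 CPM) and replicate 22 for *Irx3* (85.2 CPM).

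In WT MTAL, replicate 11 was the highest for the immediate early genes *Fos* (1567 CPM), *Egr1* (1188 CPM), *Jun* (1174 CPM) and *Socs3* (319 CPM), and also for *Aqp2* (149 CPM) and *Ildr2* (7.92 CPM). Replicate 17 was the highest for *Hk1* (1054 CPM), *Tfap2b* (392 CPM) and *Sema3d* (8.21 CPM) and the lowest for *Ildr1* (107 CPM). Replicate 15 was the highest for *Nfat5* (353 CPM) and the lowest for *Bsnd* (145 CPM). Replicate 13 was the highest for *Cldn14* (5.02 CPM) and *Serpina10* (6.80 CPM) and the lowest for *Xist* (0.486 CPM).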

How the results depend on the processing

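The count of 146 genes called, 100 higher and 46 lower, was 305, 212 and 93 with the likelihood ratio test of DESeq2, 329, 231 and 98 with that of edgeR, 382, 291 and 91 with no filter on low counts, 78, 60 and 18 with limma on TPM, and 298, 214 and 84 in 1 fit of all 18 pools. With the *Xist* term, added after the data were seen, the lower genes were 30. The genes away from both segments, 64 higher and 20 lower, were 140 and 42 with DESeq2, 152 and 44 with the likelihood ratio test of edgeR, 197 and 38 with no filter, 33 and 4 with limma, and 163 and 46 in 1 fit. The 23 genes that stayed medullary were 39 with the likelihood ratio test of edgeR and 48 with no filter, which left 229 without a placement, and the 6 beyond WT CTAL were 2 with limma. The causes were not tested.

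Leaving out 1 pool gave 89 to 391 genes called, 58 to 338 higher and 27 to 53 lower, 201 to 277 segment genes, 12 to 25 that stayed medullary, 75 to 105 within 2-fold, 2 to 9 beyond, 103 to 146 without a placement, and 36 to 265 higher and 10 to 22 lower away from both. The lowest and highest counts of genes called were those without WT CTAL replicate 8 and without cKO MTAL replicate 18. No gene taken by the rule for named genes reversed a call in an alternative. No paired analysis was possible because the groups share no replicate numbers. With 3 cKO MTAL pools, genes that vary among them, such as *Spp1*, can miss the threshold at a large difference.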
